A study of Homo sapiens with 12 samples.

Results

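The promoter regions open in every library of 3 human acute myeloid leukaemia lines are described here. Peaks on chromosomes 1 to 22 were merged over the 12 libraries where they overlapped by at least 1 bp, and a region was kept if it had a peak in all 12 libraries and came within 1 kb of the start site of a protein-coding gene. This gave 8759 promoter regions, of 328658 merged regions in all and of 22845 regions called in all 12 libraries. The other 14086 regions called in all 12 libraries, away from such start sites, are called distal below. The promoter regions were thus selected on presence in the 12 peak lists and on position, so that presence is a description and not a result.

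Open chromatin was measured by ATAC-seq on bulk cells. The Tn5 transposase of this assay cuts accessible DNA and adds sequencing adapters to it. MOLM13 and MV4-11 are lines with a rearranged MLL1 (KMT2A) gene, and OCI-AML3 is a line with mutant NPM1. In each line, control cells were compared with cells kept for 16 h with 500 nM VTP50469, an inhibitor of the binding of menin to MLL1, with 2 libraries per group and 6 groups. All cells were frozen before nuclei were isolated, MV4-11 had been grown in IMDM and the other lines in RPMI, and each line stands for 1 patient's leukaemia. The labels do not say whether the 2 libraries of a group came from separate cultures, so the spread between them may be technical.

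A promoter is the stretch around the start of a gene where RNA polymerase II and the general factors assemble. In an active promoter the nucleosome over the start is displaced, which leaves the DNA open to Tn5. Promoters of genes used in every cell type mostly lie in CpG islands, stretches rich in the dinucleotide CG that escape DNA methylation, whereas promoters of tissue genes more often lack one and may carry a TATA box. Menin, the target of VTP50469, is bound by MLL1, a histone methyltransferase that acts at active promoters. For that reason the shift of promoter openness with the compound is one of the comparisons of the design.

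Start sites were mostly open in every library or in none. Of 18787 protein-coding start sites, 9830 (52.3%) had a region of all 12 libraries within 1 kb and 4409 (23.5%) had no region of any library. The numbers in between were small, from 236 genes with a region of 6 libraries to 1229 with a region of 1 library, and 483 with a region of 11 libraries. Among merged regions the share that lay at a promoter rose with the number of libraries, from 2.48% of regions called in 1 library to 9.0% of those called in 11, and it stood at 38.3% of those called in 12. A start with no called region need not have been closed.

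**Figure D1:**
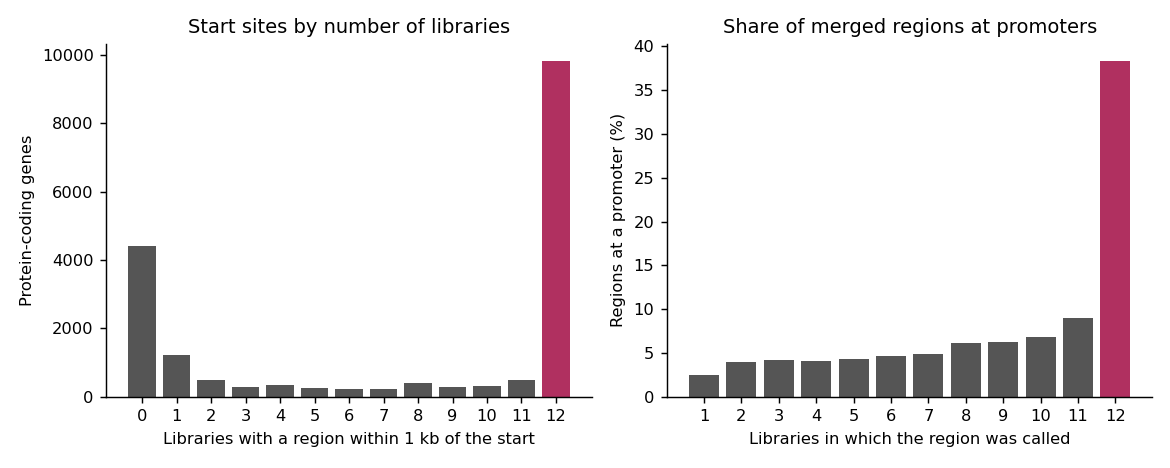
Left, protein-coding genes (vertical axis) by the number of libraries with a region within 1 kb of the start site (horizontal axis). Right, percentage of merged regions that lay at a promoter, by the number of libraries in which the region was called. The bars for 12 libraries, in red, stand at 9830 genes and at 38.3%, and the bar for 11 libraries at the right stands at 9.0%.

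The regions were compact and centred just upstream of the start. Their median width was 997 bp (10th to 90th percentile 636 to 1426), against 638 bp for distal regions, and together they covered 8.92 Mb. The median summit lay 39.5 bp upstream of the nearest start, 56.2% of summits within 100 bp of it and 79.1% within 250 bp, and 68.2% on the upstream side. A single start site was near 7424 regions, 2 start sites were near 1288, and 47 regions had 3 or more. In 898 regions (10.3%) a pair of genes ran in opposite directions from the same region. Regions with 2 or more start sites had a median fold of 11.5 and a median width of 1067 bp, against 10.6 and 984 bp for regions with 1 start site.

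The fold of a peak is the number of reads over its summit divided by the local background of the same library, after a small constant was added to both. Openness was measured as the highest fold among the peaks of a region. Over the promoter regions the median of this fold over libraries was 10.8, with the 10th and 90th percentiles at 6.77 and 14.7, against 8.67 for distal regions. The reads over a summit were recovered from the fold and its p-value, and their median over promoter regions ranged from 24 reads in the second VTP50469 library of OCI-AML3 to 52 in the second control library of MV4-11. The libraries held 67424 to 141695 peaks, of which 7.74% to 18.4% lay in these promoter regions, and the MV4-11 libraries, which had the most peaks, stood at the low end of that share, at 7.74% to 9.69%. The sequencing totals are unknown, and reads over a summit are not independent molecules.

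Most of the regions were far from the limit of calling. The lowest −log10 q of a region over the 12 libraries had a median of 13.1, it was 5 or more in 7599 regions (86.8%), and it was under 2 in 38. The regions just inside were PLXND1, FBN1, TWIST1, HOXA13, FSTL5, SPTSSB, TXNDC5 and CNN2, with a lowest −log10 q of 1.36 to 1.49. Just outside stood 586 promoter regions called in 11 libraries, with a median −log10 q of 8.06 where called, against 26.3 for the regions of all 12. The absent library was most often the second VTP50469 library of OCI-AML3 (162 regions, 27.6%), followed by the first OCI-AML3 control (102), and never the second MV4-11 control (0). The first of these had the fewest peaks of all libraries and the last the second most. The strongest of the regions just outside, by median −log10 q, were those of HNRNPA1L2 (47.4), CYB5A (36.3), VWA8 (29.0) and PXMP4 (28.3).

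The sequence just before the start is shown for 10 strong promoter regions, 1 for each of the motifs that were more frequent by these regions than among all promoters. Each run is the 100 bases before the start on the strand of the gene, 5′ to 3′, from RefSeq on GRCh38.p14, with the named motif (on either strand) in capitals.
NARS1: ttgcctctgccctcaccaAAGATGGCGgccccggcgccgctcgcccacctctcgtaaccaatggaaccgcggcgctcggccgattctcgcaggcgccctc
NOL11: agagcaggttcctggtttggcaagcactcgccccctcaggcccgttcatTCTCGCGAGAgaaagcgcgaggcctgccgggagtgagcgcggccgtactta
PDCD6: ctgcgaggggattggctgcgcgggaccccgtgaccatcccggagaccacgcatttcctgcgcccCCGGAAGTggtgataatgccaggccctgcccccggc
PA2G4: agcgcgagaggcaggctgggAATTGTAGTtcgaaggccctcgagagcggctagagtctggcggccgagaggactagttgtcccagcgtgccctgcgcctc
GEMIN2: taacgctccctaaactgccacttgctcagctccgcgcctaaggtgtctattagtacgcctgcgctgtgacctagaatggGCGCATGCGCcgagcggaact
POT1: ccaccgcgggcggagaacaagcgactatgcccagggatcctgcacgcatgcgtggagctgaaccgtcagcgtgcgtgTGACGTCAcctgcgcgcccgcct
USP54: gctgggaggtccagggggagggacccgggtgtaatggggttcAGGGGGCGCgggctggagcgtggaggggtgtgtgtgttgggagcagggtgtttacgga
GLO1: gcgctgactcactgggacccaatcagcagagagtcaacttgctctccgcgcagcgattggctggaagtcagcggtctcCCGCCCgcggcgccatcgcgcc
C19orf47: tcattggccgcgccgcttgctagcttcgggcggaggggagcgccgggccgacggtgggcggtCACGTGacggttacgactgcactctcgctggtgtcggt
EXOC4: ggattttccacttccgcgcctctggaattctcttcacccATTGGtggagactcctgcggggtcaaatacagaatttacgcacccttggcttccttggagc

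In this order the capitals mark the motifs of YY1 (NARS1, asparaginyl-tRNA synthetase, at chr18:57621837-57621936 on the minus strand), ZBTB33 (NOL11, a nucleolar protein, at chr17:67717836-67717935 on the plus strand) and the ETS family (PDCD6, a calcium-binding protein, at chr5:271546-271645 on the plus strand). They then mark those of ZNF143 (PA2G4, a growth regulator, at chr12:56104459-56104558 on the plus strand), NRF1 (GEMIN2, of the complex that assembles spliceosomal particles, at chr14:39114223-39114322 on the plus strand) and CREB and ATF (POT1, which binds single-stranded telomeric DNA, at chr7:124929826-124929925 on the minus strand). The last 4 mark part of the CTCF motif (USP54, at chr10:73625642-73625741 on the minus strand), the SP1 and KLF box (GLO1, glyoxalase, at chr6:38703146-38703245 on the minus strand), the E-box (C19orf47, at chr19:40348528-40348627 on the minus strand) and the CCAAT box of NF-Y (EXOC4, an exocyst subunit, at chr7:133252978-133253077 on the plus strand). The overlapping capitals of NOL11 and GEMIN2 hold the motif 2 times, on opposite strands. The median fold of these regions over the 12 libraries ran from 15.6 in USP54 to 21.7 in GLO1.

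The promoters were rich in CpG. A RefSeq promoter of 300 bases (250 before and 50 after a start within 1 kb of the gene's start) was found for 7865 of the 9830 genes (80.0%). Their median GC content was 65.7% and their median ratio of observed to expected CpG was 0.865, against 58.7% and 0.579 over all 35116 promoters of the table, which hold these and the promoters of noncoding genes and further starts. A ratio of 0.6 or more was met by 90.1% of them, against 48.9% of the table. Among promoters matched to all protein-coding genes, which include these and cover 73.8% of the genes, it was met by 67.5%. For start sites with no region the table held 64.7% of the genes, and for those with regions of fewer libraries 69.3%. Both shares are below the 80.0% and 73.8% above, and no comparison with these start sites was made. The 665 regions whose gene had a ratio under 0.6 had a median fold of 9.43, against 11.1 for the 6340 others matched through their leading gene. Of these 665 regions 107 (16.1%) differed between lines in the test described below, against 673 (10.6%) of the 6340.

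The motifs with the larger excess over the table were mostly those of general promoter factors that hold CG. Both strands of the 300 bases were searched for exact letters. AAGATGGCG, the motif of YY1, was in 4.69% of the promoters by these regions against 1.75% of the table, and CCGGAAGT, of the ETS family, in 10.6% against 4.14%. TCTCGCGAG of ZBTB33 was in 1.77% against 0.686% and ACTACAATT of ZNF143 in 0.776% against 0.336%. GCATGCGC of NRF1 stood at 6.54% against 3.05%, TGACGTCA of CREB and ATF at 3.9% against 1.85%, and GGGCGG of SP1 and KLF factors, which is itself made of G and C, at 73.5% against 45%. CCAAT differed little, at 38.5% against 34.6%. In the opposite direction, TATAAA was in 5.01% against 11.5%, TGANTCA of AP-1 in 3.71% against 7.71% and TGTGGTT of RUNX in 2.66% against 4.27%. GAGGAAGT, the motif of the myeloid factor PU.1, was about as frequent as elsewhere, at 2.35% against 2.59%, and it shares 6 letters with the ETS motif. The table also holds noncoding genes and further starts. Over the promoters matched to protein-coding genes, which include these and cover 73.8% of the genes, the excess was smaller. There the YY1 motif was in 2.9%, the ETS motif in 6.58%, GGGCGG in 59.4% and CCAAT in 36.4%. All motifs more frequent than in the table, here and in the next paragraph, hold CG except those of ZNF143 and NF-Y. The less frequent ones hold none, and the promoters compared differ in CpG. The part of base composition in this split was not tested. A match of letters is a description and not a bound site.

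Smaller differences were found for the remaining motifs. CACGTG was in 11.1% against 7.26% and AGGGGGCGC, part of the CTCF motif, in 3.27% against 1.93%. TGACAG of MEIS and TGIF factors was in 13% against 15.8% and GAAANNGAA of IRF factors in 6.22% against 8.11%. The ETS matches had their median position at −35 from the start and the NRF1 matches at −54.5, whereas the YY1 matches stood at 16.5 bases after it. The regions with an ETS match also ranked higher in openness, with a median normal score (defined below) of 0.71 against 0.36 without, and regions with CCAAT at 0.62 against 0.28.

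**Figure D2:**
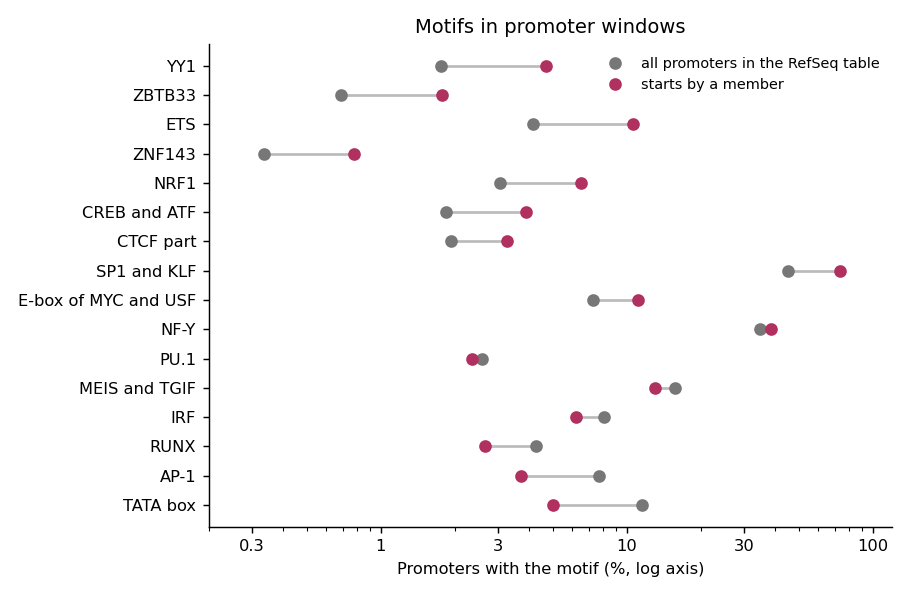
Percentage of promoters with each motif (horizontal axis, logarithmic) for the 7865 promoters by a region of all 12 libraries (red) and for all 35116 promoters of the table (grey), ordered by the ratio. The red points stand to the right of the grey ones from YY1 (4.69% against 1.75%) down to NF-Y, and to the left from PU.1 down to the TATA box (5.01% against 11.5%).

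By the median normal score, the first 10 were those of ALG10B, GLO1, EXOC4, PDCD6, ALG10, RANBP2, C19orf47 with PLD3, WDR59, ZNF451 and NMBR with VTA1. The fold of GLO1 (chr6:38702527-38703351) ran from 16.2 to 24 with a median of 21.7, and that of RANBP2 (chr2:108719117-108719790), a nuclear pore protein, from 14.2 to 24.3 with a median of 20.4. EXOC4 (chr7:133252688-133253321) ranged from 14.3 to 23.7 with a median of 21.4. ALG10B (chr12:38316414-38316965) and ALG10 (chr12:34022207-34022616) are near-identical copies of a gene of N-glycan assembly, so their values, 13.7 to 27.4 with a median of 21.3 and 12.3 to 31 with a median of 19.9, are uncertain. WDR59, of a complex that regulates mTORC1, had a median of 19.3, ZNF451 of 19.3, PDCD6 of 19.1, C19orf47 with PLD3 of 20.0 and NMBR with VTA1 of 19.8.

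The weakest regions by the same score were often second regions beside a stronger one. The last 5 were GNA13 (chr17:65055841-65056190, median fold 3.64), IRF2BP2 (chr1:234609997-234610414, 3.66), H2AZ1 (chr4:99949047-99949283, 3.8), BRD2 (chr6:32968315-32968803, 4.0) and YPEL5 (chr2:30147762-30148163, 3.91). All but BRD2, a bromodomain protein, have another region of all 12 libraries by the same start. For H2AZ1, a histone variant, the weak region had a median of 30 summit reads and its neighbour 54.0. Of the 100 weakest regions 42 stood beside a stronger region of the same gene, against 262 (2.99%) of all regions, and 312 genes had 2 or more regions by their start. The strongest region of a gene cannot enter this count, and the 100 were picked as weakest by the same score. Part of the gap is thus set by the selection, and the 2 shares are a description. The median distance of the summit from the start was 295.5 bp in the 100 weakest and 82.0 bp over all.

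A low fold could go with many reads. BRD2 had a median of 34.5 summit reads, close to the 35.0 of ALG10B, but over a local background of 9.4 reads against 0.7. Across widths, regions up to 500 bp had a median of 21.5 summit reads and a median fold of 7.42, the 2528 in the class just over 1 kb 39.5 reads and 11.7, and the 628 over 1.5 kb 44.5 reads and 9.44, with the background rising from 2.01 to 2.41 and 3.70 reads. The 5 widest were N4BP2 (2587 bp), USP3 (2394 bp), RPL7 with RDH10 (2382 bp), LONRF1 (2309 bp) and PCID2 with CUL4A (2283 bp), with median folds of 6.30 to 9.39. RPL7, a ribosomal protein gene, had a median of 117.5 reads over its summit.

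Genes of basic cell functions were nearly all among the promoter regions. All 30 small ribosomal subunit genes, 42 of 43 large subunit genes, 29 of 30 mitochondrial ribosome genes, all 20 aminoacyl-tRNA synthetases, 30 of 31 proteasome genes and 29 of 30 spliceosome genes had a region, against 52.3% of all protein-coding genes. DNA replication followed with 36 of 38, translation initiation with 23 of 24, chaperones with 19 of 20, ribosome biogenesis with 21 of 24, RNA polymerase II and general factors with 30 of 34 and oxidative phosphorylation with 34 of 39. Within these lists openness still ranged widely. PSMC4, a proteasome ATPase, had a median fold of 18.4 against 6.4 in PSMA7. ATP5F1B, the beta subunit of the ATP synthase, stood at 19 and COX6B1, of cytochrome oxidase, at 8.31, SNRPE of the spliceosome at 18.6 and U2AF2 at 7.87.

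The exceptions in these lists fell into 2 kinds. No region of any library lay by BYSL, COX7A2, EIF3C, GTF2H2, MRPL24, NDUFA5, ORC1, POLR2J, PSMA6 and U2AF1, among others. Regions of fewer than 12 libraries lay, with the number of libraries in brackets, by genes such as UBTF (1), DNAJB1 (1), PES1 (2), RPA3 (8), GTF2F2 (10), POLR2H (11), NDUFB8 (11) and NDUFA9 (11). ORC1 and BYSL have another RefSeq start by one of the promoter regions. U2AF1, EIF3C and GTF2H2 have near-identical copies in the genome, where reads cannot be placed with certainty. The start used is the outer end of the RefSeq gene, which need not be the start in use.

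Genes of inducible responses mostly had a region, at median folds under that of all promoter regions. Of 20 AP-1 and immediate early genes 16 had a region, with a median fold of 7.39, from 10.5 in KLF4 to 4.81 in EGR3. Of 20 interferon response genes 14 had one (median fold 9.75), with IFIT2 at 6.49. Of other genes, replication-dependent histones had 18 of 20 (median 8.16) and KRAB zinc finger genes 11 of 20 (median 13.7). These counts are set beside 52.3% of all protein-coding genes, and the medians beside 10.8 over all the promoter regions. Among gene families, counted after the values were known, 2 of 387 olfactory receptors and 0 of 94 keratin-associated proteins had a region, against 273 of 505 genes named ZNF.

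Markers of other cell types were mostly not open in every library. None of 9 erythroid, 10 liver or 10 muscle markers had a region of all 12 libraries, and of the defining markers CD3E, CD3G, LCK, MS4A1, HBA1 and KLF1 had no region in any library. Others were called in several libraries, with APOB and SNAP25 in 11, CD4 in 10, CD22 and PAX5 in 8 and CD79A in 7. CD8A of T cells, EBF1 of B cells and MAP2 of neurons were called in all 12, with median folds of 9.14, 9.0 and 7.27. Of the defining myeloid markers SPI1, CEBPA and LYN had a region, whereas MPO was called in 8 libraries, CSF3R in 7 and CD33 in 1.

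**Figure D3:**
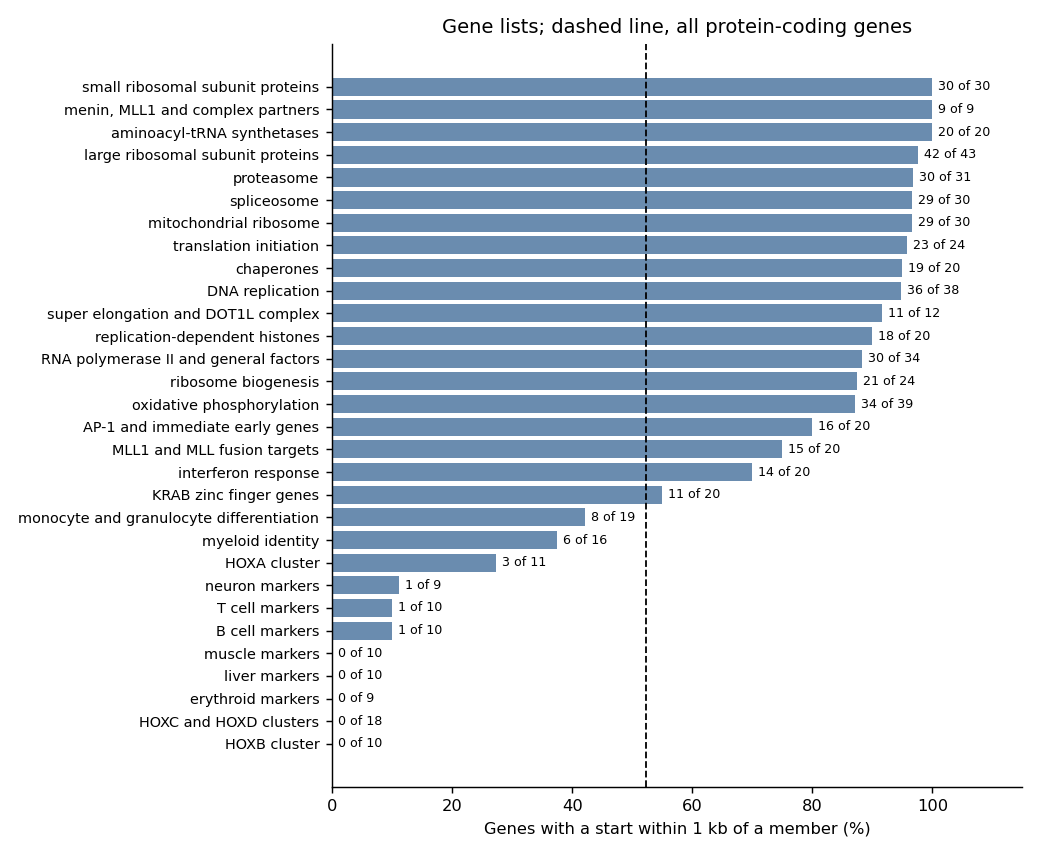
Percentage of the genes of each list with a start within 1 kb of a promoter region called in all 12 libraries, with the counts beside the bars. The dashed line marks the 52.3% of all protein-coding genes, and the bars run from all 30 small ribosomal subunit genes down to 0 of 10 HOXB genes.

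Of 16 myeloid identity genes 6 had a region in every library. These were LYZ, the lysozyme gene (fold 5.28 to 14.8 with a median of 10.3), CTSG, a granule protease (6.79 to 13.1 with a median of 9.06), LYN, a Src kinase (6.43 to 9.35 with a median of 7.9), CEBPA (6.0 to 12.5 with a median of 7.78) and CEBPB (4.56 to 7.52 with a median of 6.09), both C/EBP transcription factors, and SPI1, which codes for PU.1 (4.43 to 10.7 with a median of 7.29). All 6 folds were at or under the median of 10.8. Of 19 monocyte and granulocyte differentiation genes 8 had a region, LYZ among them. MNDA, a nuclear protein of myeloid cells, had the highest median fold (13.6), then LY96 (12.6), TLR4 (11.5), CTSS (10.4), IRF8 (9.43), CD68 (7.63) and CEBPD (7.34).

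The menin and MLL1 complex itself was open in every library. All 9 genes of that list with a start here had a region, with median folds of 15 in RBBP5, 14.4 in MEN1 (menin), 14.2 in ASH2L, 13.4 in PSIP1 (LEDGF), 13 in DPY30, 11.6 in HCFC2, 10.8 in KMT2B, 9.19 in KMT2A (MLL1) and 7.46 in WDR5. Of the super elongation and DOT1L complex genes, partners of MLL1 fusions, 11 of 12 had one, from 17.6 in CCNT1 to 7.43 in CDK9 by the stronger region of each gene. The exception was MLLT6, called in 7 libraries.

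Targets of MLL1 and its fusions were open in every library at 15 of 20 starts, at low folds. Their median fold was 7.9. FLT3, a receptor kinase, stood highest at 13.9, followed by TCF4 (10.1), BCL2 (10.1), PBX3 (9.95), SENP6 (9.24), MYB (8.31), LAMP5 (8.1), JMJD1C (7.9), SATB1 (7.85), MEIS1 (7.39), RUNX1 (7.38), HOXA10 (7.18), MYC (6.86), ZEB2 (6.41) and IGF2BP2 (5.86). Outside were CDK6 with 11 libraries, HOXA9 with 8, EYA1 with 5, RUNX2 with 2 and MEF2C with 0. In the HOXA cluster HOXA10 and HOXA13 were among the genes with a region in every library, at 7.18 and 4.81, and none of 10 HOXB or of 18 HOXC and HOXD genes had one. HOXB5 was called in 10 libraries, HOXC10 in 10 and HOXD13 in 11.

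For comparisons between libraries the folds of all 22845 regions called in all 12 libraries were ranked within each library and turned into normal scores, which have a mean of 0 and an SD of 1 in every library. Differences of scores below are thus in SDs of openness within a library. They were tested with limma (moderated test, two-sided), with Benjamini-Hochberg adjustment over all 22845 regions and calls at an adjusted p under 0.05. Since every region had to be called in all libraries, regions lost altogether in a group cannot appear.

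Libraries were more alike at promoters than away from them. Over the promoter regions the scores of replicate libraries had a median Pearson r of 0.806 (6 pairs, 0.761 to 0.861), and control and treated libraries of a line 0.805 (12 pairs, 0.759 to 0.850). Libraries of different lines had a median of 0.715 (48 pairs, 0.661 to 0.807). Over distal regions the same medians were 0.679, 0.666 and 0.478. Hence lines differed more from each other than treated from control cells in both sets, and the step was smaller at promoters. The pairs share libraries, and the values are a description. Distal regions also had fewer summit reads in every library, with library medians of 15 to 31 against 24 to 52 at promoters. The part of read number in the difference between the 2 sets was not tested. In the same terms, the mean square between lines over the promoter regions was 0.518, that of treatment within lines 0.185 and that between replicates 0.179, against 1.04, 0.325 and 0.293 over distal regions.

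**Figure D4:**
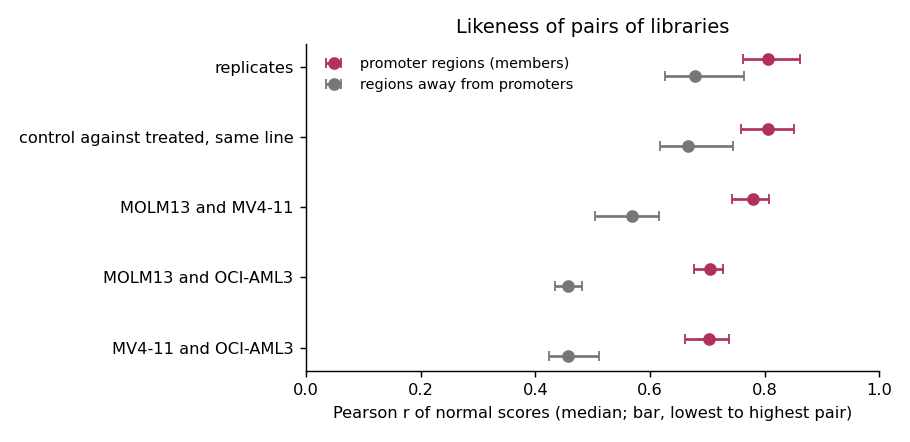
Pearson r of normal scores between pairs of libraries, for promoter regions (red) and distal regions (grey); points are medians and bars run from the lowest to the highest pair. Control against treated pairs (0.805) stand level with replicates (0.806) at promoters, and pairs of different lines stand lower, more so over distal regions.

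The steadiest regions among the more open ones changed little over all 12 libraries. EIF2S2, a subunit of translation initiation factor 2, had folds of 13.7 to 17.6 with a median of 15.1, and its score had an SD of 0.0968 over the 12 libraries, against a median SD of 0.451 over the promoter regions. TBCK with AIMP1 (11.2 to 14.7 with a median of 12.2), RPS6KB2 (9.12 to 13.8 with a median of 12.4), C3orf33 (8.88 to 12.6 with a median of 11.4) and RYBP (9.13 to 14 with a median of 10.8) followed. The most variable of the more open ones were CROT, GPALPP1 with NUFIP1, ZNF669, C2orf74 and GSTO2, which all differed between lines, as given below.

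No promoter region passed the test for VTP50469 against control. In MOLM13, MV4-11, OCI-AML3 and the mean over lines 0 of 8759 were called by limma, and 0 in the test of whether the shift differed between lines. Among all 22845 regions 0.0% were called in each of these 5 tests as well. At an unadjusted p under 0.05 there were 267 promoter regions in MOLM13 (3.05%, against 5.64% of all regions), 219 in MV4-11 (2.5% against 4.64%), 450 in OCI-AML3 (5.14% against 7.8%), 357 for the mean (4.08% against 6.41%) and 255 for the difference of shifts (2.91% against 6.08%). The smallest adjusted p of a promoter region was 0.618, 0.719, 0.363, 0.682 and 0.644 in the same order. The median SE of a shift was 0.423 in 1 line and 0.244 for the mean. In a bulk library a more open promoter in each cell and a larger share of cells with it open cannot be told apart.

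The promoter regions with the smallest p in each line are given as values. In MOLM13, SAMD4A (chr14:54565178-54566653), which codes for an RNA-binding protein, had folds of 8.44 and 9.13 in the control and 5.15 and 4.77 in the treated libraries (shift −1.72 ± 0.42 SE, adjusted p = 0.618). RFWD3, a ubiquitin ligase of DNA repair, had 13 and 11.7 against 18.9 and 20.8 (1.54 ± 0.38 SE, adjusted p = 0.618). MIGA1, of mitochondrial fusion, stood at 6.84 and 9.96 against 15.1 and 16.8 (1.77 ± 0.41 SE, adjusted p = 0.618). None of these 3 passed, and they were picked by their small p. The other regions named by the same rule were AKAP13, MUS81 and NCOA7 with lower scores and TNRC18 and CFAP210 with PHOSPHO2 with higher ones, at adjusted p of 0.730 to 0.760.

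In MV4-11, RAB37, a small GTPase, had folds of 10.2 and 8.33 in control and 4.8 and 3.68 in treated libraries (−1.99 ± 0.52 SE, adjusted p = 0.719). MNDA had 8.22 and 12.5 against 20.3 and 16.3 (1.89 ± 0.52 SE, adjusted p = 0.798), and RDH11, a retinol dehydrogenase, 14.1 and 12.9 against 20.2 and 21.4 (1.63 ± 0.40 SE, adjusted p = 0.719). None of these passed the test. ADAMTSL4, ME1 and SCRT2 with lower scores and NSMCE1 and SSMEM1 with TMEM209 with higher ones completed the list.

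In OCI-AML3, KLF3, a repressor of the KLF family, had folds of 11.1 and 13.1 in control and 6.42 and 5.97 in treated libraries (−1.59 ± 0.38 SE, adjusted p = 0.363). TYK2, a Janus kinase, had 10.5 and 12.5 against 16.1 and 17.6 (1.64 ± 0.37 SE, adjusted p = 0.363), and ATP5F1B 15.2 and 15.8 against 22.3 and 25.2 (1.64 ± 0.39 SE, adjusted p = 0.363). No call was made. PRRG4 with CCDC73, HABP4 and ABLIM3 were the other lower ones, and MIEF2 and MREG the other higher ones.

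For the mean over lines TYK2 had the smallest p of the promoter regions (shift 0.94 ± 0.21 SE, adjusted p = 0.682), with treated above control folds in all 3 lines. The other higher ones were PEX26, NEK1 and TNRC18, and the lower ones were SAMD4A, PIEZO2, SETBP1 and GIMAP2, each with an adjusted p of 0.682.

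No MLL1 target was called under VTP50469. The median shift of their 15 regions was −0.07 in OCI-AML3, −0.02 in MOLM13 and −0.09 in MV4-11, beside 0.01, −0.05 and 0.08 over all promoter regions. MEIS1, a HOX cofactor, had folds of 9.36 and 6.17 in control and 6.11 and 6.56 in treated MOLM13. In MV4-11 they were 8.39 and 8.99 in control and 7.71 and 6.91 in treated libraries. In OCI-AML3 they were 7.41 and 7.36 in control and 5.75 and 8.57 in treated libraries. Its shift for the mean was −0.36 ± 0.27 (SE, adjusted p = 0.871). At an unadjusted p under 0.05 stood IGF2BP2 in MOLM13 and JMJD1C in MV4-11, where the folds of JMJD1C were 6.48 and 5.42 in control and 11.7 and 7.99 in treated libraries, and no target in OCI-AML3 or for the mean. Several of these loci were described by the study from the same libraries, so they are not an independent choice. The study reported many gained and lost peaks with the compound, and changed peaks at targets of MLL1 fusions in both lines with rearranged MLL1. Setting ATAC-seq beside RNA-seq in MOLM13 and OCI-AML3, it described lower peaks at target loci, among them FLT3, PBX3, HOXA9, LAMP5 and MEF2C. In track plots it showed lower peaks in MOLM13 at the loci of MEIS1, SENP6 and CDK6, and in OCI-AML3 at those of MYB and TCF4. It described peaks across these loci, whereas the values here are ranked summit folds of promoter regions called in all 12 libraries. The measures are thus unlike. In the scores used here, the shift in MOLM13 was −0.67 ± 0.48 SE at MEIS1 and −0.08 ± 0.41 SE at SENP6. In OCI-AML3 the shift was 0.50 ± 0.41 SE at MYB and −0.19 ± 0.49 SE at TCF4. CDK6, with a region of 11 libraries, was not tested.

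At an unadjusted p under 0.05 the other lists held 0 to 5 regions in any line or for the mean, the most being 5 of 34 in oxidative phosphorylation for the mean, 4 of 42 of the large ribosomal subunit in OCI-AML3 and 2 of 8 differentiation genes for the mean, and none was called. Over all promoter regions 4.08% stood under that p for the mean and 5.14% in OCI-AML3. In the menin and MLL1 complex list 0 of 9 regions reached an unadjusted p under 0.05 in any line, with median shifts of −0.12, 0.11 and 0.17. In the differentiation list IRF8, a monocyte transcription factor, had the mean shift −0.76 ± 0.26 (SE, adjusted p = 0.682), with folds in OCI-AML3 of 12.2 and 11.6 in control and 8.03 and 6.62 in treated libraries. MNDA had 1.11 ± 0.30 (SE, adjusted p = 0.682). These 2 stood at opposite ends of that list.

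Lines differed at 1009 promoter regions (11.5%) in at least 1 of 3 comparisons, which share libraries. Each line was represented by its 4 libraries, control and treated. Between MV4-11 and MOLM13, 123 promoter regions were called (1.4%, against 4.49% of all regions), between OCI-AML3 and MOLM13 380 (4.34%, against 8.96%) and between OCI-AML3 and MV4-11 773 (8.83%, against 13.8%). In each comparison the share at promoters was below that of all regions. The calls kept when any 1 library was left out numbered 33, 103 and 160, and with 1 library left out the counts ranged from 41 to 132, 199 to 314 and 235 to 743. Of the calls, 106, 316 and 437 were also made in the same direction on the scale of summit reads.

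The directions depend on how promoters stand against distal regions. In MV4-11 against MOLM13, 81 promoter regions were lower and 42 higher, when 1.36% of all regions were lower and 3.13% higher. In OCI-AML3 against MOLM13 they were 167 and 213 (4.17% and 4.79% of all), and in OCI-AML3 against MV4-11 188 and 585 (7.34% and 6.46% of all). The median shift over all promoter regions was −0.21 in MV4-11 against MOLM13, 0.23 in OCI-AML3 against MV4-11 and 0.01 in OCI-AML3 against MOLM13. In the libraries themselves the median fold at promoters exceeded that at distal regions by 0.105 to 0.248 (log2) in MV4-11 and by 0.267 to 0.40 in the other lines. Ranked apart from distal regions, 31 promoter regions were lower and 78 higher in MV4-11 than in MOLM13, 186 and 208 in OCI-AML3 than in MOLM13, and 311 and 238 in OCI-AML3 than in MV4-11, so the split turned in MV4-11 against MOLM13 and in OCI-AML3 against MV4-11. On summit reads the counts lower and higher were 1112 and 198, 1488 and 802, and 684 and 1049 in the same order. The regions named for their large shifts in the next 5 paragraphs had shifts of over 1.9 in size, and those named from gene lists after them had smaller ones.

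CROT, ZNF669 and CPLANE1 were less open in MOLM13 than in the other lines. CROT (chr7:87344946-87346124), of peroxisomal fatty acid breakdown, had folds of 4.56, 5.67, 5.9 and 4.59 in MOLM13 (control 1 and 2, then treated 1 and 2), 15, 14.7, 9.68 and 10.5 in OCI-AML3 and 14.4, 17.9, 17.7 and 15.1 in MV4-11. All MOLM13 values were below all others, with a shift of MV4-11 against MOLM13 of 2.83 ± 0.32 (SE, adjusted p = 0.000488) and of OCI-AML3 against MOLM13 of 2.62 ± 0.32 (SE, adjusted p = 0.000528). ZNF669 (chr1:247103847-247104589), a zinc finger gene, had 7.34, 7.94, 7.61 and 10.1 in MOLM13, 16.4, 18.8, 17 and 20.1 in OCI-AML3 and 15.4, 20.6, 19.1 and 16.7 in MV4-11, again without overlap (OCI-AML3 against MOLM13, 2.81 ± 0.31 SE, adjusted p = 0.000265). CPLANE1, a gene of cilia, stood at 4.78, 5.97, 5.0 and 4.53 in MOLM13 and at 11.4, 14.1, 10.7 and 11.6 in OCI-AML3 (2.54 ± 0.29 SE, adjusted p = 0.000311). In all, 21 promoter regions were lower in MOLM13 than in both other lines, and 9 were higher.

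LMCD1 was more open in MV4-11 than in both other lines, and GLB1L2 and EFNB2 were less open. LMCD1 (chr3:8501375-8502070), which codes for a LIM protein, had folds of 19.4, 18, 18.8 and 20.9 in MV4-11, 6.76, 4.5, 5.25 and 5.47 in MOLM13 and 7.04, 5.01, 6.42 and 3.55 in OCI-AML3. The MV4-11 values were all higher than the others (against MOLM13 3.39 ± 0.45 SE, adjusted p = 0.000793), and no other promoter region had as large a shift in either comparison. ZNF222, ZNF562, C2orf74 and WDR35 were also higher in MV4-11 than in MOLM13, but C2orf74 and WDR35 were not called between OCI-AML3 and MV4-11. In the opposite direction, GLB1L2 (chr11:134331870-134332373) had 4.32, 3.84, 4.68 and 5.78 in MV4-11, 7.22, 7.95, 7.47 and 10.6 in MOLM13 and 8.74, 13.7, 8.91 and 7.93 in OCI-AML3 (MV4-11 against MOLM13, −1.96 ± 0.29 SE, adjusted p = 0.00184). EFNB2, an ephrin ligand, had 11.1, 14.1, 11.7 and 9.66 in OCI-AML3 and 4.52, 5.51, 7.43 and 6.11 in MV4-11 (OCI-AML3 against MV4-11, 2.49 ± 0.28 SE, adjusted p = 0.000203). Lower in MV4-11 than in MOLM13 were also PPT2 with PRRT1, SYCP2L, ARC, DDAH1 and ASAH2B, the last a copy of the ceramidase gene ASAH2 whose reads may be shared, and of these PPT2 with PRRT1 was not called between OCI-AML3 and MV4-11. MV4-11 was lower than both other lines at 43 promoter regions and higher at 12.

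Among the promoter regions, OCI-AML3 differed from both others at the most, 118 higher and 64 lower, with no share over all regions to set beside them. OSMR (chr5:38845587-38846418), the oncostatin M receptor, had folds of 15.5, 18, 11.4 and 11.8 in OCI-AML3, 5.94, 5.78, 6.67 and 6.23 in MOLM13 and 5.75, 6.54, 4.2 and 6.19 in MV4-11. The OCI-AML3 values lay above all the others (against MV4-11 3.25 ± 0.29 SE, adjusted p = 7.97e-05). HOXA13 (chr7:27199968-27200644), the last gene of the HOXA cluster, had 7.92, 11.1, 7.62 and 8.94 in OCI-AML3, 5.2, 4.29, 3.6 and 2.91 in MOLM13 and 4.41, 4.09, 5.21 and 3.57 in MV4-11 (against MOLM13 2.49 ± 0.33 SE, adjusted p = 0.000762), and it is among the regions nearest to the limit of calling. SH3TC2 and ULBP3, a ligand of the NKG2D receptor, were higher in OCI-AML3 than in MV4-11, and LRRC37A3, of a gene family with near-identical copies, than in MOLM13.

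LY96 and FPR1, both of innate immunity, were lower in OCI-AML3 than in MOLM13. LY96, the partner of TLR4 in sensing lipopolysaccharide, had folds of 4.52, 6.07, 5.94 and 5.54 in OCI-AML3, 10.4, 12.7, 12.7 and 17.6 in MOLM13 and 12.5, 18.3, 14.8 and 17 in MV4-11. No OCI-AML3 value reached the others (against MOLM13 −2.25 ± 0.34 SE, adjusted p = 0.00135, against MV4-11 −2.33 ± 0.34 SE, adjusted p = 0.000811). FPR1 (chr19:51751653-51752284), a receptor for formyl peptides, had 5.51, 8.58, 4.76 and 6.42 in OCI-AML3 and 12.5, 10.3, 11.2 and 19.1 in MOLM13 (−1.92 ± 0.39 SE, adjusted p = 0.00763). TLR4 itself was not called, with shifts of −0.17 against MOLM13 (adjusted p = 0.774) and −0.65 against MV4-11 (adjusted p = 0.148).

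Further regions lower in OCI-AML3 were GPALPP1 with NUFIP1, RASSF2, GSTO2, ZSCAN12 and NIBAN3. GPALPP1 with NUFIP1 (chr13:44989320-44989946), a divergent pair of which NUFIP1 takes part in snoRNP assembly, had 4.9, 9.24, 5.95 and 7.96 in OCI-AML3, 14.5, 18.1, 16 and 20.7 in MOLM13 and 13.9, 20.0, 18.9 and 14.6 in MV4-11 (against MOLM13 −2.70 ± 0.40 SE, adjusted p = 0.00122). RASSF2 (chr20:4822401-4823764), a Ras association gene, had 5.91, 6.57, 5.55 and 4.58 in OCI-AML3 and 11.9, 10.8, 13.3 and 16.2 in MOLM13 (−2.14 ± 0.28 SE, adjusted p = 0.00067). Both were apart from MOLM13 in every library. SEC22B and CDK11B were lower in OCI-AML3 than in MV4-11 by the fold, but both have near-identical copies, and the call of CDK11B was not made on the scale of summit reads.

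**Figure D5:**
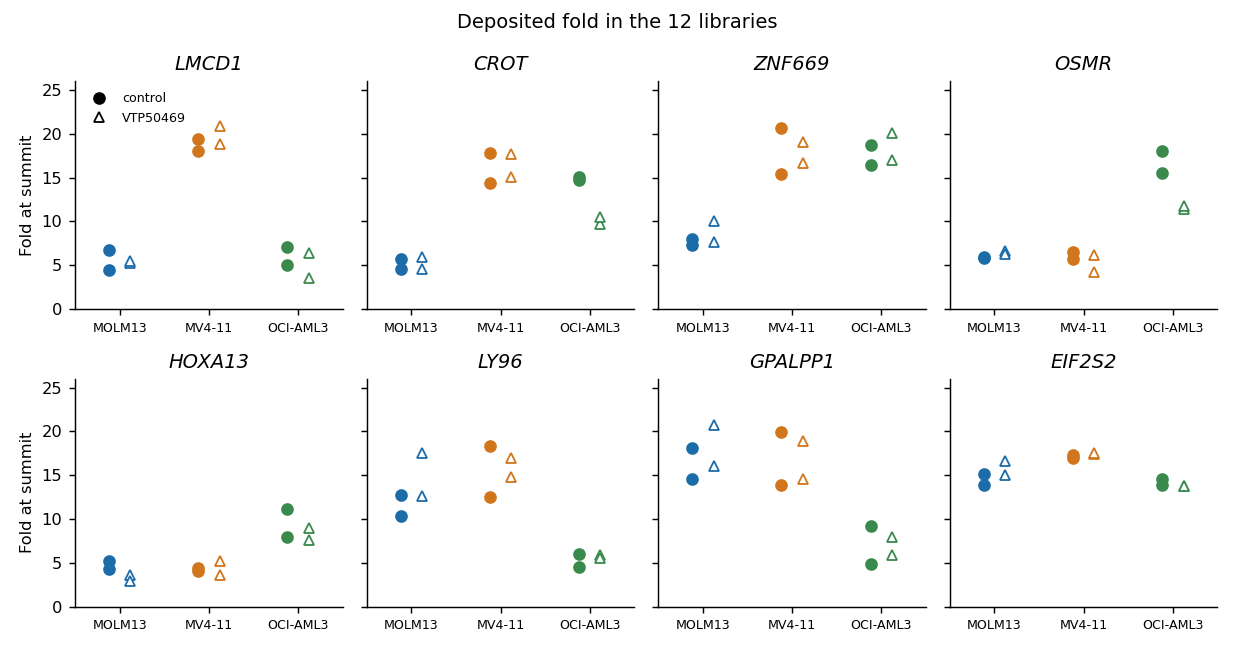
Deposited fold of the strongest peak (vertical axis) in each of the 12 libraries for 8 promoter regions, by line, with control libraries as filled circles and treated ones as open triangles. LMCD1 is high in MV4-11 alone, CROT and ZNF669 are low in MOLM13, OSMR and HOXA13 are high and LY96 and GPALPP1 low in OCI-AML3, and EIF2S2 stays between 13.7 and 17.6.

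Of the 15 MLL1 targets 2 were called between OCI-AML3 and MOLM13 and 2 between OCI-AML3 and MV4-11, and of the 8 differentiation genes 2 and 3, beside 4.34% and 8.83% of all promoter regions. FLT3 was lower in OCI-AML3 than in MOLM13, with folds of 9.28, 12.1, 8.31 and 7.71 against 11, 15.3, 15.7 and 17.4 (shift −1.24 ± 0.29 SE, adjusted p = 0.0165). TCF4, a transcription factor of the E protein family, was higher in OCI-AML3 than in MOLM13 (1.21 ± 0.35 SE, adjusted p = 0.040) and than in MV4-11 (adjusted p = 0.00636), with folds of 16.5, 11.9, 12.8 and 12.7 against 9.99, 8.55, 10.2 and 9.99 and 10.1, 9.89, 8.7 and 10.1. ZEB2 was higher in OCI-AML3 than in MV4-11 (adjusted p = 0.00605). None of the 6 myeloid identity regions was called between lines, and of the 8 differentiation regions CD68 was higher and LY96 lower in OCI-AML3 than in both others and CEBPD higher than in MV4-11. The calls of CD68 and CEBPD were not made on summit reads, and these and the calls of FLT3 and of TCF4 against MOLM13 were not kept in every fit without 1 library. None of the 9 menin complex regions was called.

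The counts for other lists are read beside the same 4.34% and 8.83%. Of 42 large ribosomal subunit regions 3 were called between OCI-AML3 and MOLM13 and 3 between OCI-AML3 and MV4-11, and of 30 small subunit regions 1 and 1. Of 19 regions of AP-1 and immediate early genes 2 and 5 were called, the 5 all higher in OCI-AML3 than in MV4-11. The median shift of that list between OCI-AML3 and MV4-11 was 0.78, beside 0.23 over all promoter regions. MLLT1, a fusion partner of MLL1 on chromosome 19, was lower in OCI-AML3 than in both other lines, with folds of 5.91, 7.92, 5.94 and 4.18 against 9.38, 11.5, 10.5 and 11.4 in MOLM13 and 14.4, 12.7, 11.9 and 11.7 in MV4-11 (shifts −1.47 and −1.50, adjusted p = 0.00783 and 0.00555).

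The counts of calls differed among chromosomes. Of all 8759 promoter regions 167 were lower and 213 higher in OCI-AML3 than in MOLM13. On chromosome 19, which held 574 of them, 35 were lower and 7 higher, whereas on chromosome 1, with 916, 5 were lower and 30 higher. Chromosome 19 was not alone in its direction. The counts lower and higher were 13 and 2 of 159 on chromosome 13 and 12 and 4 of 257 on chromosome 20. They were 13 and 6 of 394 on chromosome 16 and 14 and 7 of 345 on chromosome 8. The median shift over the promoter regions of a chromosome ran from −0.31 on chromosome 19 to 0.16 on chromosome 7. Between OCI-AML3 and MV4-11 chromosome 19 again had more lower (41) than higher (8) regions, and chromosome 6 had 6 and 51, beside 188 and 585 over all promoter regions. Among regions lower in OCI-AML3 than in MOLM13 with a promoter sequence, 22 of 120 (18.3%) held the ETS motif, against 9.78% of all promoter regions with one. These chromosomes and motifs were picked after the values were seen and were not tested.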

How the data were processed

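ATAC-seq peak lists of 12 libraries (3 lines, control or VTP50469, 2 libraries per group) were used. Per the labels the authors trimmed with Trimmomatic 0.33 after bcl2fastq 2.17, and also used Bowtie 1.1.2, deepTools and the peak caller MACS2 2.1.0 on hg38. The study's supplementary methods name another aligner, and read shifting and duplicate handling are not given in the sources used here. Peaks were called per library, not on pooled libraries. The deposited fold is a ratio of summit reads to the background nearby, with a small constant added to both. A −log10 p and a −log10 q were also deposited for each summit, and the deposited score is the whole part of 10 times −log10 q. None of these is normalized between libraries.

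Peaks on chromosomes 1 to 22 were merged, and start sites were the 5′ ends of RefSeq genes on GRCh38.p14. Summit reads were recovered from the fold and −log10 p to a tolerance of 0.001, with 1 added to the reads and to the background in the fold. Ranks of the fold within each library over the 22845 regions called in all 12 were converted to normal scores. These were compared by limma 3.58.1 in R 4.3.3, with all groups sharing 1 estimate of the spread. The procedure was run on simulated data with planted shifts, where recovery was required only for a comparison between lines. How large a treatment shift it would find is not given here. Named regions were the strongest, weakest, widest, steadiest and most variable, the 4 with the smallest p in each direction for each treatment comparison, the 6 with the largest shift in each direction among the calls between lines, the MLL1 target, menin complex, HOXA and myeloid genes, and the ends of the other lists. The members and lists were chosen with earlier results of these data known. Alternatives covered the window, the peak threshold, the scale, the region value, the variance prior, a replicate block and each library left out, and ranking promoters apart from distal regions was added after seeing the data. Chromosomes X and Y were not analysed here. Some genes of the lists are not reported here by name.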

Additional observations from a re-analysis of the deposited data

How the results depend on the processing

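With a window of 500 bp there were 8413 promoter regions, with peaks of −log10 q of at least 5 there were 7594, and without any 1 library 8759 to 8921. Under VTP50469, 0 promoter regions were called in each of 95 alternative fits with limma, where 150 to 515 were under an unadjusted p of 0.05 and the smallest adjusted p was 0.143. The counts between lines depended on the setting, and 29 of 57 recomputed counts moved by over 1.5 times. On summit reads they were 1310 for MV4-11 against MOLM13, 2290 for OCI-AML3 against MOLM13 and 1733 for OCI-AML3 against MV4-11, in place of 123, 380 and 773. With the mean fold of the peaks of a region they were 73 for MV4-11 against MOLM13 and 419 for OCI-AML3 against MV4-11, and with the stricter peaks 57 (28 lower, 29 higher) and 502. Without 1 library they ranged from 41 to 132 for MV4-11 against MOLM13, from 199 to 314 for OCI-AML3 against MOLM13 and from 235 to 743 for OCI-AML3 against MV4-11. For MV4-11 against MOLM13 each of the 8 libraries of these lines moved the count by over 1.5 times (41 to 76 without it), and so did each of the 8 libraries for OCI-AML3 against MV4-11 (235 to 515). For OCI-AML3 against MOLM13 the 4 MOLM13 libraries (199 to 229), the first OCI-AML3 control (229) and the second OCI-AML3 VTP50469 library (252) did. The cause was not tested, beyond the fewer libraries in such fits. With the replicate block the counts were 128, 376 and 775. Deviations of libraries with the same number had correlations of 0.009 (OCI-AML3), 0.040 (MV4-11) and 0.050 (MOLM13). Over all 15 pairs of groups they ran from 0.003 to 0.050, the MOLM13 value being the highest. These values give no clear sign that the numbers pair the libraries, but they cannot exclude it. The median of 35.5 summit reads per region limits what a single region can show.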
